A study of Mus musculus with 9 samples.

Results

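Of 16251 H3K4me3 peaks listed for mouse periosteal stem and progenitor cells, 1293 lay more than 10 kb from the nearest annotated transcription start site (TSS), on an autosome, and shared no base with a KLF4 site or a PLAGL1 peak. They were chosen from the authors' annotated peak list by the deposited distance to the TSS and by overlap of at least 1 bp with 21130 KLF4 consensus sites and 3463 PLAGL1 peaks. They made up 8.22% (Wilson 95% interval 7.8 to 8.66) of the 15727 autosomal H3K4me3 peaks and 56.1% (54.1 to 58.1) of the 2304 autosomal peaks beyond 10 kb. The remaining distal peaks were 982 that held a KLF4 site, 184 of them with a PLAGL1 peak as well, and 29 that held a PLAGL1 peak alone. These distal peaks without KLF4 were mostly weak and narrow, while a small upper group had scores of promoter size, among them regions near Wnt10a, Sfrp2, Ddr2, Mir181a-1 and Tbx15.

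The 9 CUT&Tag libraries (antibody-directed tagmentation of chromatin) came from cells of the mandibular angle of 8-week-old mice, each from 100000 cells after 3 days in medium with 50 µg/ml ascorbic acid, 5 mM β-glycerophosphate and 1e-07 M dexamethasone. The H3K4me3 library (n = 1) was of Plagl1fl/fl genotype, and its treatment label names no lentivirus. The PLAGL1-HA (n = 1), IgG (n = 1) and KLF4-FLAG (n = 3) libraries of Plagl1fl/fl cells and the KLF4-FLAG libraries of Ctsk-iCre;Plagl1fl/fl cells (n = 3) were made after lentivirus at a multiplicity of 10, and the KLF4 table is a consensus over both of these genotypes. A region "without KLF4" is therefore one with no called site of introduced, tagged KLF4 in other cultures than those of the H3K4me3 library. In the Cre line, recombination is driven by Ctsk, a gene of osteoclasts and of a subset of periosteal stem cells.

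H3K4me3 is the histone mark of active and poised promoters, laid down by SET1 and MLL complexes, and CpG islands commonly carry it. Away from annotated promoters the mark is found at unannotated starts, at transcription units of small RNAs, at some retroviral long terminal repeats (LTRs) and, weakly, at strong enhancers. KLF4 is a zinc finger factor that binds GC-rich CACCC-type elements, and PLAGL1 is a zinc finger factor encoded by an imprinted gene.

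The label of the cells was set against H3K4me3 peaks within 3 kb of marker genes, called promoter peaks here. Of 21 periosteal progenitor markers 19 had one, with Lepr and Angptl7 as the exceptions, and 16 of 24 osteoblast markers had one, without Bglap, Ibsp, Dmp1 or Sost. Markers of other cells the digest could hold were marked at 11 of 15 for macrophages and osteoclasts, 5 of 12 for endothelium, 4 of 10 for Schwann cells and neurons and 1 of 10 for skeletal muscle. Markers of tendon were marked at 7 of 8, of adipocytes at 10 of 14 and of chondrocytes at 9 of 17. The shares for tendon, adipocytes and macrophages and osteoclasts were thus above that of the osteoblast list. In such a bulk library a mark in fewer cells and a weaker mark per cell cannot be told apart.

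Because primary transcripts of microRNAs often start far from the annotated hairpin, the distal marks near microRNA genes are shown first by the RNA they neighbour. The 53 peaks nearest to a microRNA gene fell to 45 genes, of which 40 had a mature sequence in the RefSeq table (build GRCm38.p6), with 66 mature sequences between them. Gene names that begin with Mir, a slightly wider group, were at 56 of the 1293 peaks (4.33%, 3.35 to 5.58). Distal peaks with KLF4 had a similar share, 49 of 982 (4.99%, 3.79 to 6.54), and all autosomal peaks had 1.57%. The sequences below are a selection, namely 3 of the 4 seeds shared between genes (miR-181a, which also has the highest score, miR-29 and let-7), and miR-99a, miR-21a and miR-701, with bases 2 to 8, the seed, in capitals.
miR-181a-5p: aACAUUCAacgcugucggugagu
miR-29b-3p: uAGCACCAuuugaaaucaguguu
miR-29a-3p: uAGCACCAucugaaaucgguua
miR-99a-5p: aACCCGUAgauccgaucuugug
let-7a-5p: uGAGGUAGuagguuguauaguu
let-7i-5p: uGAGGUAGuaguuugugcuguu
miR-21a-5p: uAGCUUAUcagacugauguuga
miR-701-5p: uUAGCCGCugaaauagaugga

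The 1293 distal peaks without KLF4 were low in the authors' peak score, a value of each peak that is used here only to rank and describe peaks within this list. Their scores ran from 20 to 1467 with a median of 70 (order-statistic 95% interval 68 to 77) and quartiles of 46 and 137. The 982 distal peaks with KLF4 had a median of 91 (85 to 99) and an upper quartile of 233, and the 12573 peaks within 3 kb of a TSS had a median of 809 (799 to 820). The intervals of the 3 medians did not overlap, so the peaks without KLF4 were the weakest of the 3 groups. There is 1 H3K4me3 library, so no difference between peak groups has a replicate check, and all intervals cover counting error only.

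Distal peaks without KLF4 had a smaller share of high scores and a larger share of low ones than distal peaks with KLF4. Scores of 500 or more were held by 53 of the 1293 (4.1%) and by 127 of the 982 with KLF4 (12.9%). The median score of all autosomal peaks, 636, was reached by 30 (2.32%, 1.63 to 3.29) and 94 (9.57%, 7.89 to 11.6). Scores under 100 were held by 843 (65.2%) and 526 (53.6%).

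**Figure D1:**
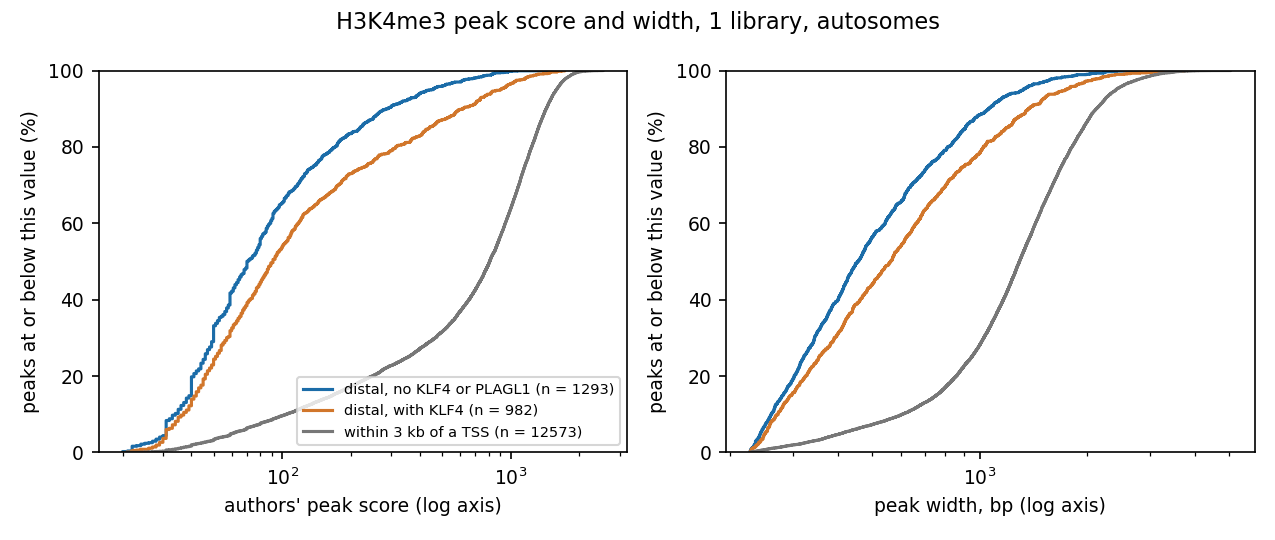
Cumulative share of autosomal H3K4me3 peaks (vertical axes, percent) at or below a given authors' peak score (left, log axis) or peak width in bp (right, log axis), for distal peaks without KLF4 or PLAGL1, distal peaks with KLF4 and peaks within 3 kb of a TSS. The curve of the 1293 distal peaks without KLF4 (median score 70, median width 455 bp) lies to the left of the distal peaks with KLF4 (91 and 562 bp) and far to the left of the peaks near a TSS (809 and 1291 bp).

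Width followed the same order. The peaks without KLF4 had a median width of 455 bp (436 to 474) and ran from 227 to 2838 bp, against 562 bp (527 to 590) with KLF4 and 1291 bp within 3 kb of a TSS. Across the 1293 peaks the score rose with the width (Spearman correlation 0.73, a description across peaks of 1 library), and across the 982 with KLF4 the correlation was 0.74. A wider region meets a KLF4 site more easily, so the scores were also read within 3 width classes of equal size over all distal peaks. In the narrowest class, up to 381 bp, the median score was 47 without and 50 with KLF4, and in the middle class 70 and 74. In the widest class, from 666 bp, it was 193 (175 to 222) without and 300 (253 to 364) with KLF4. The intervals stood apart in the widest class and overlapped in the narrower ones.

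The distance that set the group had a median of 28676 bp and reached 746538 bp. Of the 1293 peaks 412 (31.9%) lay under 20 kb from a TSS, 381 (29.5%, 27.0 to 32.0) beyond 50 kb and 153 (11.8%, 10.2 to 13.7) beyond 100 kb. With KLF4, 216 (22.0%) lay beyond 50 kb and 75 (7.64%) beyond 100 kb, a smaller share in both classes. The peaks just inside the limit of 10000 bp were at Krtap5-20 (10005 bp, score 329), Sp7 (10033 bp, score 110) and Unc119b (10095 bp, score 27). Just outside it were Mir140 (9987 bp, score 76), Ier5l (9982 bp, score 129) and Blvra (9973 bp, score 45), the last pair with a KLF4 site.

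Most of these regions were well separated from the sites that were left out. The nearest KLF4 site was at a median of 24759 bp, within 1 kb of 56 peaks (4.33%), within 5 kb of 153 (11.8%) and within 100 kb of 1087 (84.1%). The nearest PLAGL1 peak was at a median of 210636 bp. The nearest other H3K4me3 peak was at a median of 26027 bp, and 80 peaks (6.19%) had one within 1 kb, against 31 of the 982 with KLF4. One of the near misses was the peak at Sp7, the gene of the osteoblast factor osterix, which lay 434 bp from a KLF4 site and 413 bp from a PLAGL1 peak.

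By the authors' annotation 712 of the 1293 (55.1%, 52.3 to 57.8) were intergenic and 512 (39.6%) intronic, close to the 57.3% and 38.6% of the distal peaks with KLF4. Exons held 48 (3.71%, 2.81 to 4.89) against 17 (1.73%, 1.08 to 2.75). Of the intronic peaks 153 (29.9%) were in intron 1, and for 174 (34.0%) the gene with the nearest TSS was not the gene whose intron held the peak. The genes whose introns held most were Maml3 with 5, Lrba and Tcf4 with 4 each, and Akap12, Igf1r, Mast4, Mir99ahg, Nfia, Rin2 and Tenm3 with 3 each.

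The feature named at the peak separated the scores. The 142 peaks in CpG islands had a median score of 170, the 74 in LTR elements 90.5, the 503 intergenic peaks with no such feature 70 and the 417 intronic ones 59. CpG islands supplied 39 of the 100 highest scores from 11.0% of the peaks. CpG island peaks with KLF4 were stronger still, with a median of 439, and made up a larger share, 145 of 982 (14.8%, 12.7 to 17.1) against 142 of 1293 (11.0%, 9.39 to 12.8). In the widest class they were 30.1% (25.8 to 34.8) with and 21.4% (17.5 to 25.8) without KLF4, where the intervals just met. In the narrower classes the order was the reverse, with overlapping intervals, at 2.87% with and 4.98% without KLF4 in the narrowest and 6.11% and 8.84% in the middle class.

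**Figure D2:**
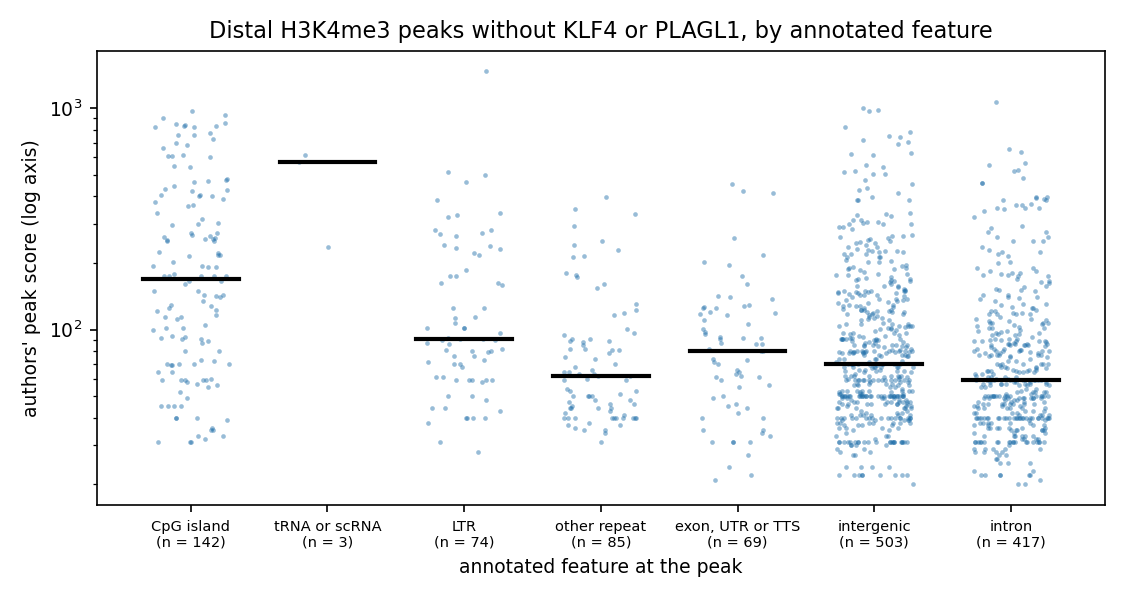
Authors' peak score (vertical, log axis) of each of the 1293 distal H3K4me3 peaks without KLF4 or PLAGL1, by the feature named at the peak in the authors' annotation; each point is a peak and each bar the median. The CpG island peaks have a median of 170, the LTR peaks 90.5 and the intronic peaks 59, and the highest point of all, at 1467, is in an LTR.

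Endogenous retroviral elements were a larger part of the distal peaks without KLF4 than of those with it. LTR elements were named at 74 peaks without KLF4 (5.72%, 4.58 to 7.13) and 28 with it (2.85%, 1.98 to 4.09). The ERVK family, which includes the IAP elements still mobile in mice, was named at 38 (2.94%, 2.15 to 4.01) and 9 (0.916%, 0.483 to 1.73). Read the other way, 38 of 47 distal ERVK peaks (80.9%, 67.5 to 89.6) had neither factor, against 56.1% of all distal peaks. The older ERVL-MaLR family lay near that average, with 14 of 29 (48.3%, 31.4 to 65.6), and ERV1 with 11 of 15 (73.3%) and L1 with 13 of 17 (76.5%) had wide intervals that held it. The share of LTR peaks was 6.49% (4.4 to 9.47) without and 1.28% (0.546 to 2.95) with KLF4 in the widest class, while in the narrowest it was 5.81% and 5.02%. How reads with several matches were treated was not given in the sources used here. Its part in the marks at repeats was not tested.

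**Figure D3:**
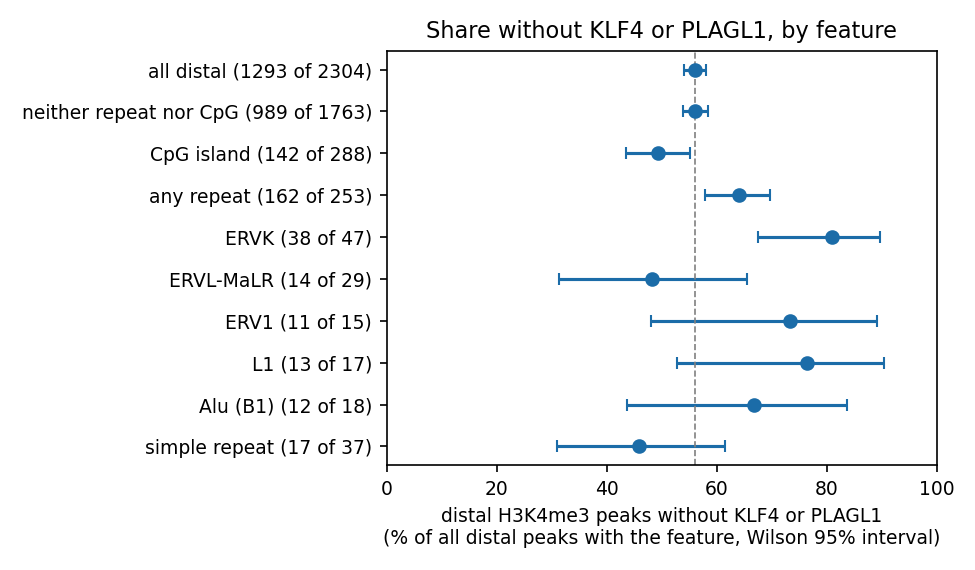
Share of distal autosomal H3K4me3 peaks that have neither KLF4 nor PLAGL1 (horizontal axis, percent, with Wilson 95% intervals), by annotated feature; the dashed line is the share among all distal peaks, 56.1%. ERVK stands at 80.9% and any repeat at 64.0%, both with intervals above the line, while CpG islands stand at 49.3% with an interval below it.

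The strongest of all 1293 peaks was an LTR. It lay in an RMER17B element of the ERVK family at chr2:174982971-174983933 (mm39, the build of all peak coordinates here), 65258 bp from the TSS of the predicted gene Gm6710, with a score of 1467 over 963 bp and no promoter peak at that gene. A second RMER17B peak, at Zfp970, scored 463, and none of the 5 distal RMER17 peaks held KLF4. Of all distal peaks 56.1% had neither factor. In Gramd1b, which encodes a cholesterol carrier, an RLTR16C_MM element in intron 1 scored 515 at chr9:40325861-40326531. The 15 IAP peaks ran from 40 to 323 with a median of 102, against 2 distal IAP peaks with KLF4. The 3 peaks in RLTR4, a murine leukemia virus type element, scored 498 at Cep85, 335 at Ykt6 and 281 at Wdr5, and the 6 in VL30 elements ran from 59 to 175. The highest ERVL-MaLR marks were an MLT1A element 17010 bp from Il6st, the gene of the gp130 cytokine receptor subunit, with 273, and an ORR1E element at Gm36109 with 113. Simple repeats were named at 17 peaks, the highest at 4931403E22Rik with 240 and Ripor1 with 229.

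Transfer RNAs and small cytoplasmic RNAs, made by RNA polymerase III, were named at few distal peaks, 3 without KLF4 and 1 with it (score 173). The median of the 3 was 570, against 170 in CpG islands and 636 for all autosomal peaks. The 3 peaks named for such a repeat scored 612 at a 4.5S RNA near Klrb1c (chr6:128737221-128738260), 570 at a histidine tRNA near Hjv (chr3:96407009-96408361) and 236 at an aspartate tRNA (chr1:170929374-170930521) with no gene named.

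Chromosome 13 had the highest share of these peaks, 91 of 706 (12.9%, 10.6 to 15.6), with overlapping intervals on chromosomes 3 (10.9%, 8.97 to 13.3), 10 (10.3%) and 16 (10.2%), among others, and the lowest shares were 5.71% on chromosome 11 and 5.77% on chromosome 17. The window of 1 Mb with the most was chr13:21343215-22343214, in which all 17 distal H3K4me3 peaks lacked KLF4 and PLAGL1, with scores from 43 to 689 and a median of 158. Between Trim27 and Prss16, nearest genes of several of these peaks, the RefSeq table of GRCm38.p6 places 43 of its 430 tRNA genes and a group of replication-dependent histone genes, while the peak annotation names no tRNA at these 17 peaks. Trim27, an E3 ubiquitin ligase gene, was the nearest gene of 5 of them (scores 689, 241, 226, 176 and 47) and Gpx5, an epididymal glutathione peroxidase gene, of 4 (237, 158, 70 and 43). Without the window chromosome 13 had 74 of 658 (11.2%, 9.05 to 13.9), close to chromosome 3. Over all autosomes 1165 of the 1293 peaks had no other within 10 kb, and the other 128 formed 62 runs, of which the longest, with 4, lay in this window.

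Of the 53 peaks with a score of 500 or more, those near Wnt10a, Sfrp2, Ddr2 and Cd276 are described first. How many of the 53 neighboured genes of secreted or surface proteins was not counted. Wnt10a, a Wnt ligand that promotes bone formation, had a score of 977 at chr1:74856091-74856665, 25200 bp from its TSS, while its promoter peak scored 30. Sfrp2, a secreted Wnt modulator, had 899 in a CpG island at chr3:83696668-83697734, 23573 bp from a TSS whose promoter peak scored 478. Ddr2, the collagen receptor tyrosine kinase of mesenchymal cells, had 974 over 2254 bp at chr1:169936327-169938580, 20940 bp upstream of the annotated TSS, which had no promoter peak. At Wnt10a and Sfrp2 the distal score was thus above that of the promoter peak. Cd276, an immune checkpoint ligand, scored 842 at chr9:58461571-58462969, 14047 bp upstream, and also had no promoter peak.

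Among the others of the 15 highest scores at genes that are not predicted or clone genes, Tln2, a talin that links integrins to actin, scored 845 in a CpG island 73683 bp upstream at chr9:67539615-67541721, and Kalrn, a guanine nucleotide exchange factor, 770 at chr16:34392356-34394570, both with no promoter peak. Tenm3, a cell adhesion protein, had 5 peaks with scores of 659, 607, 85, 80 and 59, and no promoter peak. Hsd17b12, a fatty acid elongation enzyme, scored 1006 at chr2:94008392-94009375, and Pisd, which makes phosphatidylethanolamine, 934 at chr5:32870609-32871718, each at a gene whose promoter peak held both KLF4 and PLAGL1. Osbpl1a, an oxysterol binding protein gene, scored 819, and Atp6v0e, a proton pump subunit gene, 752. Fam149a (1068 in intron 1, chr8:45811031-45811909) and Naaladl2 (824, 359938 bp upstream, chr3:25197482-25198734) were also among the 15 and had no promoter peak.

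The homeodomain zinc finger gene Zfhx3 scored 755 at chr8:109430016-109431859, 10339 bp upstream of its TSS, and the zinc finger gene Zfp938 scored 760. The antisense gene Sox5os3 scored 854 in a CpG island at chr6:144726504-144728523, and C230035I16Rik 971 in a CpG island at chr13:23629335-23630952. Maml3, a coactivator of Notch, had 4 peaks named for it, all in its intron 1, with scores of 237, 176, 70 and 42, while its promoter peak scored 724 and held both KLF4 and PLAGL1. Tcf4, a basic helix-loop-helix factor, had 4 with scores of 364, 97, 57 and 56. The widest of the 1293 at a named gene was 2838 bp long, in intron 1 of Sh3d19 with Prss48 as the gene of the nearest TSS, and scored 295.

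Of the genes named by these peaks 712 of 1122 (63.5%, 60.6 to 66.2) also had a promoter peak, against 590 of 864 (68.3%, 65.1 to 71.3) for distal peaks with KLF4. For protein-coding genes the shares were 75.9% (72.9 to 78.6) and 77.1% (73.8 to 80.0), and for noncoding RNA genes 44 of 225 (19.6%, 14.9 to 25.2) and 40 of 146 (27.4%, 20.8 to 35.1). The 469 peaks whose gene had no promoter peak had a median score of 77 (68 to 81), against 70 (65 to 76) for the 824 whose gene had one, with overlapping intervals. Where both existed, the distal score exceeded the promoter score in 54 of 824 cases (6.55%, 5.06 to 8.45). For distal peaks with KLF4 it did so in 56 of 666 (8.41%, 6.53 to 10.8), with overlapping intervals. Besides Wnt10a and Sfrp2 the 54 included Cdkl4 (634 against 63), Dixdc1, a Wnt pathway gene (525 against 184), Prdm1, a zinc finger repressor gene (467 against 284), and Wnt11 (447 against 377), picked after their values were seen. The Wnt11 peak was a near miss, 409 bp from a KLF4 site and 360 bp from a stronger distal H3K4me3 peak (547) that held KLF4.

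KLF4 was absent at the distal regions by the selection, and at the promoters of their genes it was about as frequent as at all promoter peaks. The promoter peak held a KLF4 site for 495 of the 712 genes (69.5%, 66.0 to 72.8), close to the 68.6% (67.7 to 69.4) of all 11735 genes with a promoter peak, and below the 454 of 590 (76.9%, 73.4 to 80.2) for genes with a distal KLF4 peak. PLAGL1 was at 79 of the 712 promoters (11.1%, 8.99 to 13.6), close to the 10.4% of all and below the 16.6% (13.8 to 19.8) of genes with a distal KLF4 peak. The sets of genes overlapped in 119, which is 10.6% of the 1122 and 13.8% of the 864.

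**Figure D4:**
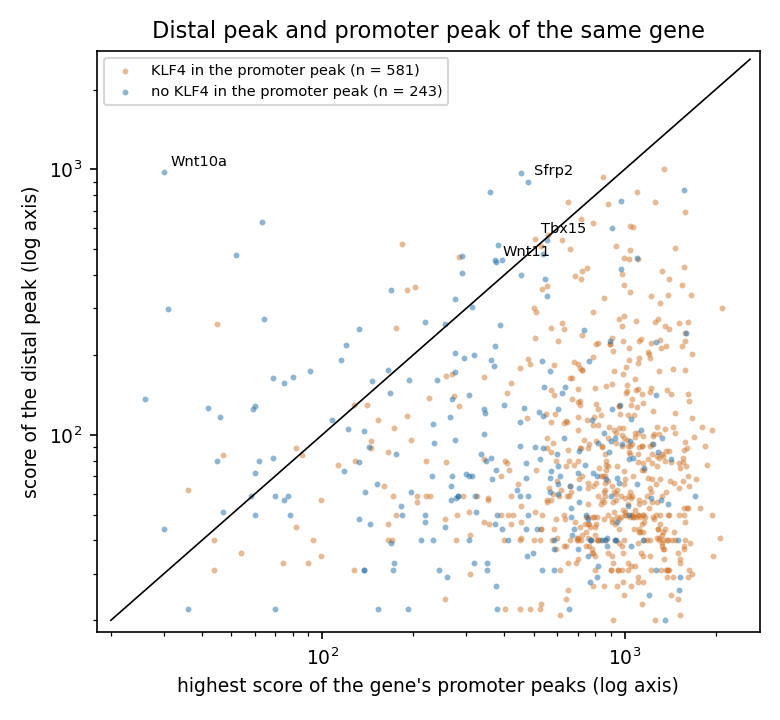
Authors' score of a distal peak without KLF4 or PLAGL1 (vertical, log axis) against the highest score of the promoter peaks of the gene it is annotated to (horizontal, log axis), for the 824 peaks with such a gene; the line marks equal scores and the colour whether the promoter peak holds KLF4. Of the 824 points 54 lie above the line, with Wnt10a, at 977 against 30, the farthest from it.

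Craniofacial and limb patterning factors were the list most often named by these peaks. Of 31 such genes with a peak anywhere, 14 (45.2%, 29.2 to 62.2) had at least 1 distal peak without KLF4, against 8.87% (8.39 to 9.38) of all 12650 genes that name a peak, and 1 had a distal peak with KLF4 (3.23%, against 6.83% of all). Of the 17 distal peaks at these genes 16 (94.1%, 73.0 to 99.0) had neither factor, the exception being a peak at Twist1 with a score of 80. The list was chosen with earlier results of these data known, so it carries no test.

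The T-box gene Tbx15, which shapes craniofacial and limb skeleton, had a CpG island peak of 547 at chr3:99147512-99149084, 12778 bp upstream, above its promoter score of 504, and a second of 51. Among the homeodomain genes, Meis1 had 248 at chr11:18827185-18828211, 141271 bp from the TSS, Six2 175, Dlx2 141, Prrx1 140, Msx2 114 and Pbx3 109. Pitx1, a jaw and hindlimb selector gene, had 165 and 47 at 131553 and 142594 bp upstream, and Meis2 and Dlx1 had 70 and 57. The basic helix-loop-helix genes Twist1 and Twist2, which hold back osteoblast differentiation, had 70 and 59. Of the 16 scores of the list 8 lay above the overall median of 70, and the distances from the TSS ran from 10349 to 208410 bp.

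The same held when genes were taken by the word homeobox in the authors' gene description, a grouping made after the values were seen and sharing most members with the list above. Of 88 such genes with a peak 18 (20.5%, 13.3 to 30.0) had a distal peak without KLF4 and 2 (2.27%) one with it, and 18 of 21 distal peaks (85.7%, with a lower bound of 65.4%) had neither factor. Irx2, of the Iroquois family, scored 438 at chr13:72787478-72788447, 11023 bp from a TSS with no promoter peak. The promoters of homeobox genes were also less often called for KLF4, at 30 of 74 (40.5%, 30.1 to 51.9) against 68.6% of all marked genes. Among the 14 craniofacial genes with a distal peak 8 (57.1%, 32.6 to 78.6) had KLF4 in the promoter peak. Of all craniofacial genes with a promoter peak it was 12 of 30 (24.6 to 57.7%). Of homeobox genes with a promoter peak and a distal peak without KLF4 it was 6 of 13 (46.2%, 23.2 to 70.9). The intervals of the genes with a distal peak held 40.5% and 68.6%. Those genes were thus not set apart from their class or from all marked genes.

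Promoter sequences are shown for a homeobox gene on each side of that split, Prrx1 with KLF4 in its promoter peak and Dlx2 without. They are the 250 bases before the RefSeq start in GRCm38.p6, on the minus strand at chr1:163313651-163313900 and chr2:71546755-71547004, read 5′ to 3′, and capitals mark a CACCC-type motif, CCNCACCC on either strand, which was picked with the values known.
Prrx1: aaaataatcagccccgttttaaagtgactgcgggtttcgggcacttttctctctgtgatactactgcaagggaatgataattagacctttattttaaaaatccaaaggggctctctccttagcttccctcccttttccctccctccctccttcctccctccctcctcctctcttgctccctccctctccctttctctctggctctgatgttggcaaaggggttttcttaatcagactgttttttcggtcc
Dlx2: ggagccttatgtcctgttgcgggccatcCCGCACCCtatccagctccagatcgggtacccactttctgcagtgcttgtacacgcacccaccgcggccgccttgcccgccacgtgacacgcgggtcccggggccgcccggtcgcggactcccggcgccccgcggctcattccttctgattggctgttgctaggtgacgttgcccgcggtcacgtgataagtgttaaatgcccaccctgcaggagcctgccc
Of the craniofacial genes with a distal peak and a sequence in the table, the motif was in 0 of 4 windows with KLF4 in the promoter peak and 1 of 5 without, and in 14.9% of all 32851 promoter windows. Tbx15, Pitx1 and Pbx3 are named only.

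**Figure D5:**
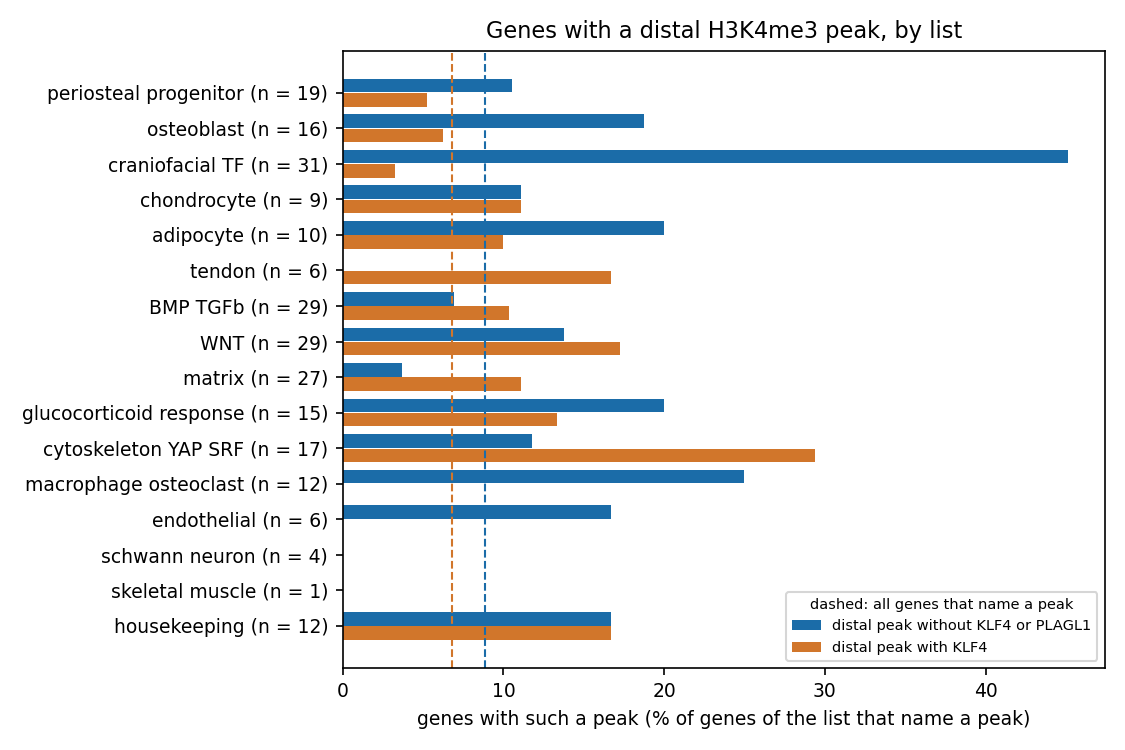
Percent of the genes of each list that name at least 1 distal H3K4me3 peak without KLF4 or PLAGL1, or with KLF4 (horizontal axis; n is the number of genes of the list that name any autosomal peak, and dashed lines are the same shares over all genes). The craniofacial factors stand at 45.2% without and 3.23% with KLF4, while each other list has at most 4 genes without and 5 with KLF4.

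Of 16 osteoblast genes 3 (6.59 to 43.0%) had a distal peak without KLF4, namely Col1a2, a type I collagen chain (157 at 88181 bp upstream, and 46), Msx2 (114) and Sp7 (110), and 1 had one with KLF4. Of 19 periosteal progenitor genes 2 did, Prrx1 (140) and the integrin gene Itgav (89). For chondrocyte genes it was 1 of 9, Sox5 (59), for adipocyte genes 2 of 10, Cebpd (99) and Zfp423 (44), and for tendon genes 0 of 6. With so few genes the intervals of these lists held the 8.87% of all genes.

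In the signalling, matrix and cytoskeleton lists fewer of the distal peaks were without KLF4 than the 56.1% of all distal peaks. Of 29 WNT genes 4 had a distal peak without KLF4, Sfrp2 (899), Wnt11 (447), the receptor gene Ror2 (74) and Axin2 (50), and 5 one with it, and 4 of their 12 distal peaks (13.8 to 60.9%) had neither factor. Of 29 BMP and TGF-β genes 2 did, Ltbp1 (40) and the receptor gene Bmpr1a (28), against 3, and 2 of their 7 distal peaks (8.22 to 64.1%) had neither factor. Of 27 matrix genes 1 did, the crosslinking enzyme gene Loxl1 (63), against 3, and 1 of their 4 distal peaks (4.56 to 69.9%) had neither factor. Of 17 cytoskeleton, YAP and SRF genes 2 did, Amotl2 (193) and Tead1 (133), against 5, and 2 of their 9 distal peaks (6.32 to 54.7%) had neither factor. The interval of the last list alone lay below 56.1%. Wnt10a (977 and 44) and Dixdc1 (525), with distal peaks without KLF4, were not in the WNT list. The share of that list thus depends on which genes were put in it.

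Of 15 glucocorticoid response genes, which bear on the dexamethasone in the medium, 3 (20.0%, 7.05 to 45.2) had a distal peak without KLF4. They were Ddit4 (205), Cebpd (99) and Dusp1 (24), and 2 genes had a distal peak with KLF4. Housekeeping genes gave 2 of 12 (16.7%, 4.7 to 44.8) on either side, with Ywhaz at 269 and 147 without KLF4. Over all genes 8.87% had a distal peak without KLF4, a share inside the intervals of both lists. Of the lists of other cell types, 3 of 12 macrophage and osteoclast genes (with a lower bound of 8.89%) had one, at Adgre1 (46), Ptprc (31 and 31) and Itgam (22). Of 6 endothelial genes 1 did (3.01 to 56.4%), Flt1 (96), with an interval that held the 8.87%. All 4 macrophage peaks scored below the median of 70, and the Schwann cell and muscle lists had 0.

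Among the microRNA genes, both of those that encode miR-181a had such peaks. Mir181a-1 had the strongest, 624 over 2655 bp at chr1:137826220-137828874, 66646 bp upstream, and a weak peak of 31. Mir181a-2 had 364 and 183 in intron 3 of Nr6a1, the former at chr2:38713397-38714471. The miR-29 pair, whose known targets include collagen mRNAs, had 268 over 2224 bp at chr6:31063063-31065286, 24146 bp upstream of Mir29b-1, and 88 at Mir29a. None of these 4 genes had a promoter peak.

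Mir99a had 275 and 64 in introns of its host Mir99ahg, the former at chr16:77296696-77298464, 98244 bp upstream. Mir701 scored 477 in intron 2 of Ttc28, Mir6921 403 in intron 1 of Rai1, Mir7008 396 and Mir6995 386 in intron 7 of Sh3pxd2a at chr19:47307174-47308907. Further down were Mir21a, in introns of Vmp1, with 144 and 78, let-7a-1 with 134, Mir125b-1 with 85, let-7i with 47 and Mir148a with 40 and 31, picked after their values were seen. Of the microRNA genes named here Mir21a, Mir125b-1, let-7i and Mir148a also had a promoter peak, of 407, 334, 456 and 585. Where such a peak lies in the intron of another gene, the list does not say which transcript it belongs to.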

How the data were processed

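The authors deposited an annotated H3K4me3 peak list of 1 CUT&Tag library, an annotated PLAGL1 peak list and a table of KLF4 consensus sites. The submitters' processing notes name, with no role or order, Bowtie2 2.5.4, deepTools 3.5.5, DiffBind 3.16.0, edgeR 4.2.0, GATK 4.5.5.0, HOMER 4.11.1, MACS3 3.0.2, SAMtools 1.21 and Trim Galore 0.6.10, with mm39 as the build. Treatment of duplicates and of reads with several matches, scaling and any control for the H3K4me3 peaks were not given in the sources used here. Library depth is unknown. The peak score is the authors' deposited value, from 20 to 2545 in the H3K4me3 list. Distances to the TSS, classes and gene names are the authors' annotation, per the file headers. The KLF4 table's deposited log2 fold changes, log2 CPM, F score and p-value of control against Plagl1-deficient cells were not used, since the regions described hold no KLF4 site; its positions were. The vector names in the KLF4 libraries' treatment labels run from Klf4 to Klf9, and the titles were followed. The files have 0 columns of further samples.

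Overlaps (at least 1 bp), counts, medians and Wilson or order-statistic 95% intervals were computed in numpy 2.4.6, scipy 1.17.1 and pandas 2.3.3 under Python 3.11.15, with figures from matplotlib 3.10.9. The overlap code was tested on simulated intervals. With 1 library there is no test. Gene names matched the RefSeq table of GRCm38.p6 for 1104 of 1122 genes (98.4%); that table gave gene order and sequences, and no coordinate was converted. The regions and the 16 gene lists were chosen with earlier results of these data known. Named were the 15 highest and 5 widest peaks at genes that are not predicted or clone genes, genes with 4 or more, up to 4 per gene list, 8 microRNA peaks, 5 CpG island peaks, 2 for each of the 3 commonest repeat families, and 3 on each side of the distance limit; others are said to have been picked later. A few genes under this rule are not reported here. Alternatives changed the distance limit, overlap rule, and score and width minimum.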

Additional observations from a re-analysis of the deposited data

How the results depend on the processing

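The number of peaks, their score and width, their intergenic, repeat and CpG island shares and their share at genes with a promoter peak were recomputed under 10 alternatives; the comparisons with distal KLF4 peaks, the width classes, the distances to other sites, the shares by chromosome and the other gene lists were not. Beyond 50 kb in place of 10 kb, 381 peaks were left, with a median score of 81, a median width of 529 bp, 8.66% in repeats and 13.4% in CpG islands. Beyond 20 kb the median width was 476 bp and the repeat share 10.8%. With scores in the upper 50% of all peaks 33 were left, with a median score of 784, a width of 1163 bp, 84.8% intergenic, 3.03% in repeats, 51.5% in CpG islands and 48.5% at a gene with a promoter peak. With a width of at least 500 bp 564 were left, with a median score of 142, a width of 780 bp, 60.3% intergenic, 18.6% in CpG islands and 60.8% at a gene with a promoter peak. These score and width shifts follow from the selection itself; the cause of the shifts with distance was not tested. The other alternatives kept these values within the intervals of the main ones and the number of peaks between 881 and 1580.

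Counts added after seeing the data moved too. Craniofacial genes fell from 14 to 5 beyond 50 kb and 0 in the upper scores, homeobox genes from 18 to 5 and 1, LTR peaks from 74 to 35 beyond 20 kb, 15 beyond 50 kb, 1 in the upper scores and 32 at 500 bp or more, and ERVK peaks from 38 to 21, 10, 1 and 19. No paired analysis was possible because the H3K4me3 list comes from 1 library and the KLF4 table has no values per library. Unknown depth limits what the absence of a called KLF4 site or of a weak peak can show.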

Other observations

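Other families read from gene descriptions, all taken after the values were seen, are given beside the 8.87% of all genes with a distal H3K4me3 peak without KLF4 and the 6.83% with one that holds KLF4. Olfactory receptor genes stood highest, at 4 of 6 (66.7%, Wilson 95% interval 30.0 to 90.3) without and 1 with KLF4. Among them Or2ad1, Or4d11 and Or5ae2 had no promoter peak, so only a peak farther away brought them into the count. Of all 12650 genes 11735 had a promoter peak, so the olfactory share and that of all genes are not a like comparison. T-box genes had 2 of 8 on either side. Forkhead genes had a distal H3K4me3 peak without KLF4 at 5 of 25 (20.0%, 8.86 to 39.1) and with KLF4 at 3, and SRY-box genes at 3 of 12 and 0. Nuclear receptor genes had 7 of 40 without and 9 of 40 with KLF4. Zinc finger protein genes had 24 of 350 (6.86%, 4.65 to 10.0) and 16, and collagen genes 1 of 26 and 4.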
